A study of Mus musculus with 16 samples.

Results

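The comparison described here sets 4 cardiomyocyte RNA libraries from mice given a PRODH virus against 4 from mice given the control virus, with no pressure load on either side. It uses 8 of the 16 libraries of the study, all from C57BL/6 mice that went through a sham operation. The 4 vector sham libraries carry AAV9-Vector and the genotype label WT, and the 4 PRODH sham libraries carry AAV9-PRODH and the label PRODH Overexpression. Adeno-associated virus 9 (AAV9) is a gene carrier that reaches heart muscle well. The virus came 3 weeks before surgery, and adult cardiac myocytes were isolated 4 weeks after it. The other 8 libraries had the same viruses and transverse aortic constriction (TAC), a band on the aorta that loads the heart with pressure, and they serve below to look at the same genes a second time. The sources used here do not give sex, age, the hour of collection, the promoter that drives PRODH or the species of the delivered sequence. The labels do not say whether each library came from its own animal, so the p-values measure the spread between libraries, which may be technical.

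PRODH, proline dehydrogenase, sits on the inner mitochondrial membrane and starts the breakdown of proline by passing its electrons to the respiratory chain. ALDH4A1 then turns the product into glutamate, while PYCR1 and ALDH18A1 work in the direction of proline synthesis. Interferon-stimulated genes, which turn out to lead the comparison, are switched on when a cell senses interferon or viral nucleic acid, and many carry a binding site for interferon-activated factors near their start. The circadian clock, the other large group, is a loop in which CLOCK and ARNTL (BMAL1) drive Per, Cry, Dbp and related genes. The products of Per and Cry in turn repress CLOCK and ARNTL.

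Total counts ran from 15987580 to 21999305 per sham library, of which 58.5% to 63.0% belonged to genes of the mitochondrial genome and their nuclear copies. Between 6259219 and 8974398 counts per library were left for other genes. The 10 cardiomyocyte markers (Myh6, Tnnt2, Tnni3, Actn2, Ttn, Ryr2, Myl2, Pln, Mb and Actc1) were present in every sham library and none passed the test, with log2 fold changes from -0.12 to 0.05. Vector sham library 1 stood farthest out on the first principal component of the 8 libraries, which took 24.6% of the variance. It lay at -32.3, against -12.4 to -11.2 for the other vector sham libraries and 12.5 to 22.2 for the PRODH sham libraries. The 4 tested Y-linked genes (Ddx3y, Eif2s3y, Kdm5d and Uty) were lower with PRODH by log2 values from -0.57 to -0.37, and none of them passed the test. Ddx3y measured 54.4 to 96.0 CPM, counts per gene scaled to 1 library size, in vector sham and 43.3 to 63.0 in PRODH sham. The sex-linked gene Xist had at most 5 counts in any library.

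Of 57010 gene models, 14066 passed the filter on low counts. The edgeR quasi-likelihood test called 704 of them at an adjusted p under 0.05. Of these, 395 were higher and 309 lower with PRODH, which is 2.81% and 2.20% of the genes tested. The list counts below are to be read beside these shares. Most differences were small: 387 of the 704 were under 1.5-fold, and 83 higher and 38 lower genes reached 2-fold. The median over all genes was 0.01 on the log2 scale. In 346 of the higher and 284 of the lower genes the 4 libraries of a group lay entirely apart from the other 4, and over all genes tested 5.25% and 5.17% did so. Without vector sham library 1 the test called 316 higher and 268 lower. Among 40 gene lists, the members called higher were concentrated in the interferon list (38 of 40), the clock list (13 of 23) and the antigen presentation list (11 of 19). The members called lower were most numerous in the immediate early list (9 of 25), the glucocorticoid target list (8 of 20) and the hypertrophy list (8 of 23).

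**Figure D1:**
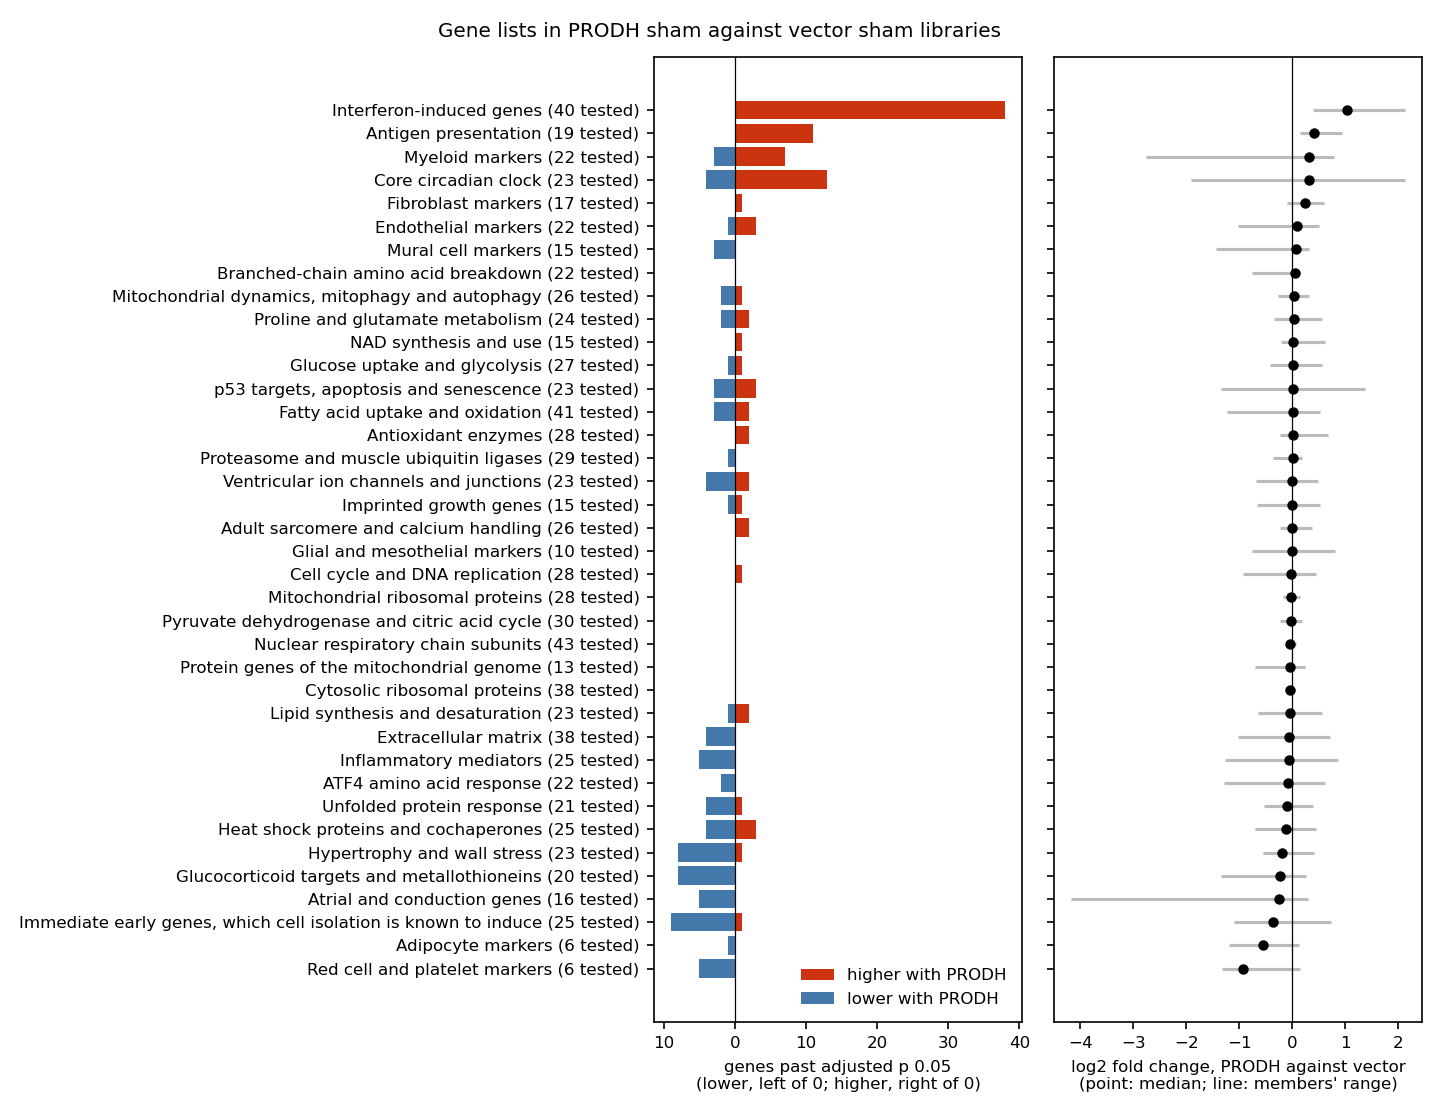
For each gene list with at least 5 tested members, the bars on the left count the genes past an adjusted p of 0.05, with higher genes to the right of 0 and lower genes to the left. On the right the point is the median log2 fold change of all tested members, PRODH sham against vector sham, and the line runs from the lowest to the highest member. The interferon list stands at the top with 38 higher and 0 lower members and a median of 1.04.

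Mouse Prodh itself moved little. It measured 10.9, 11.1, 10.4 and 11.5 CPM, that is counts per gene put on one library size for all libraries, in the vector sham libraries and 12.6, 14.3, 13.5 and 14.8 in the PRODH sham libraries. All 4 PRODH libraries were above all 4 vector libraries. The log2 fold change was 0.33 ± 0.10 (standard error, SE), and the edgeR adjusted p of 0.0517 missed the threshold. Across the alternative settings this p ran from 0.0338 to 0.136, so that several settings put it past the threshold and others did not. After TAC the vector libraries held 7.28 ± 1.18 CPM (SD, n = 4) and the PRODH libraries 13.6 ± 1.05. The vector libraries were lower after TAC than after sham by -0.58 ± 0.11 on the log2 scale (edgeR adjusted p = 2.6e-05), and the PRODH libraries differed by -0.02 ± 0.10, which did not pass the test. Whether reads of the delivered sequence were counted under mouse Prodh was not tested.

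The enzymes around PRODH showed small differences or none. Of 24 tested genes of proline and glutamate metabolism 2 rose and 2 fell, and the list's median of 0.03 was close to that of all genes. Glul, glutamine synthetase, measured 252, 233, 224 and 227 CPM with the vector and 284, 284, 282 and 271 with PRODH, a rise of 0.26 ± 0.06 on the log2 scale with an edgeR adjusted p of 0.0070. Slc1a5, a glutamine carrier, rose by 0.56 ± 0.16 (edgeR adjusted p = 0.034) and missed the threshold when vector sham library 1 or 4 or PRODH sham library 3 or 4 was left out, and in the fit on the 8 sham libraries alone (0.55, edgeR adjusted p = 0.085). The 2 that fell were P4ha1, the catalytic subunit of a collagen prolyl hydroxylase, at -0.34, and Slc38a2, a carrier of small neutral amino acids including proline, at -0.33. Aldh4a1 stood at 0.08 ± 0.08, Pycr1 at -0.14 ± 0.36 and Aldh18a1 at -0.15 ± 0.16, none of them past the test.

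Mitochondrial and translation genes held no calls. The edgeR test called 0 of 43 nuclear respiratory chain subunits, 0 of 30 genes of pyruvate dehydrogenase and the citric acid cycle, 0 of 13 protein genes of the mitochondrial genome, 0 of 28 mitochondrial ribosomal proteins, 0 of 22 genes of branched-chain amino acid breakdown and 0 of 38 cytosolic ribosomal proteins. The medians of these 6 lists lay between -0.05 and 0.05. Of 41 genes of fatty acid uptake and oxidation 2 rose and 3 fell, beside 2.81% higher and 2.20% lower of all genes tested. Pdk4, a kinase that shuts pyruvate dehydrogenase, fell by 0.50 on the log2 scale, from 540, 445, 472 and 506 CPM to 404, 355, 321 and 304. Slc27a1, a fatty acid transport protein, rose by 0.46. Angptl4, a secreted inhibitor of lipoprotein lipase, measured 6.97, 7.71, 8.57 and 7.88 CPM with the vector and 3.09, 2.74, 3.84 and 3.55 with PRODH. Its log2 fold change was -1.24 ± 0.14 (edgeR adjusted p = 2.0e-07). Nampt, the rate-limiting enzyme of NAD salvage, rose by 0.62 ± 0.09 and was the only called gene among 15 of NAD synthesis and use. Gclm, a subunit of the enzyme that starts glutathione synthesis, and Hmox1, which breaks down heme, were the 2 called genes among 28 antioxidant genes, at 0.63 and 0.67.

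Interferon-stimulated genes gave the most uniform difference. Of 40 tested members 38 passed the test as higher, 0 as lower, and the list's median log2 fold change was 1.04. In all 40 the 4 PRODH sham libraries lay above the 4 vector sham libraries. Their summed level was 325 to 341 CPM in the vector libraries and 642 to 686 in the PRODH libraries. The 2 members that missed the threshold were the low genes Oas1b at 0.94 (edgeR adjusted p = 0.051) and Cxcl10 at 1.20 (0.057). Across the alternative settings, leaving out each library included, between 37 and 40 members passed as higher and 0 as lower.

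Ifit1, which binds foreign RNA caps, measured 3.13, 3.30, 3.32 and 2.75 CPM with the vector and 13.1, 16.4, 11.1 and 14.3 with PRODH. The lowest PRODH library was thus more than 3 times the highest vector library. Its log2 fold change of 2.13 ± 0.13 (edgeR adjusted p = 1.3e-12) led the list. Ifit3, its partner, went from 6.48, 4.87, 5.13 and 5.50 CPM to 17.6, 20.3, 19.6 and 18.3, a log2 fold change of 1.79. Ifit3 had fractional counts in all 16 libraries and so shared reads with similar sequences. Usp18, which restrains interferon receptor signalling, rose by 1.85, and the transcription factor Irf7 by 1.42. Irf7 was at 10.7, 12.6, 12.6 and 11.004 CPM against 29.5, 30.9, 31.4 and 33.8. In both Ifit3 and Irf7 every PRODH library lay above every vector library.

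Other genes of the same kind filled much of the list of largest rises. The 15 largest rises were taken only among genes with at least 5 CPM and groups that did not overlap. Among these 15, Gbp3 (1.40) and Iigp1 (1.32), interferon-inducible GTPases, and Tgtp1 (1.27), another of them, stood beside Oasl2 (1.40), Xaf1 (1.30), Lgals3bp (1.27) and Ifi27l2a (1.23). Tgtp1 had fractional counts in every library. Lgals3bp, a secreted glycoprotein, was tight: 19.5, 22.9, 22.0 and 23.6 CPM against 53.6, 53.3, 50.2 and 55.2. Isg15, a ubiquitin-like modifier, rose by 1.40 from a low level, 1.07 to 1.88 CPM with the vector and 3.81 to 4.67 with PRODH. Ifi27 rose by 1.04.

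**Figure D2:**
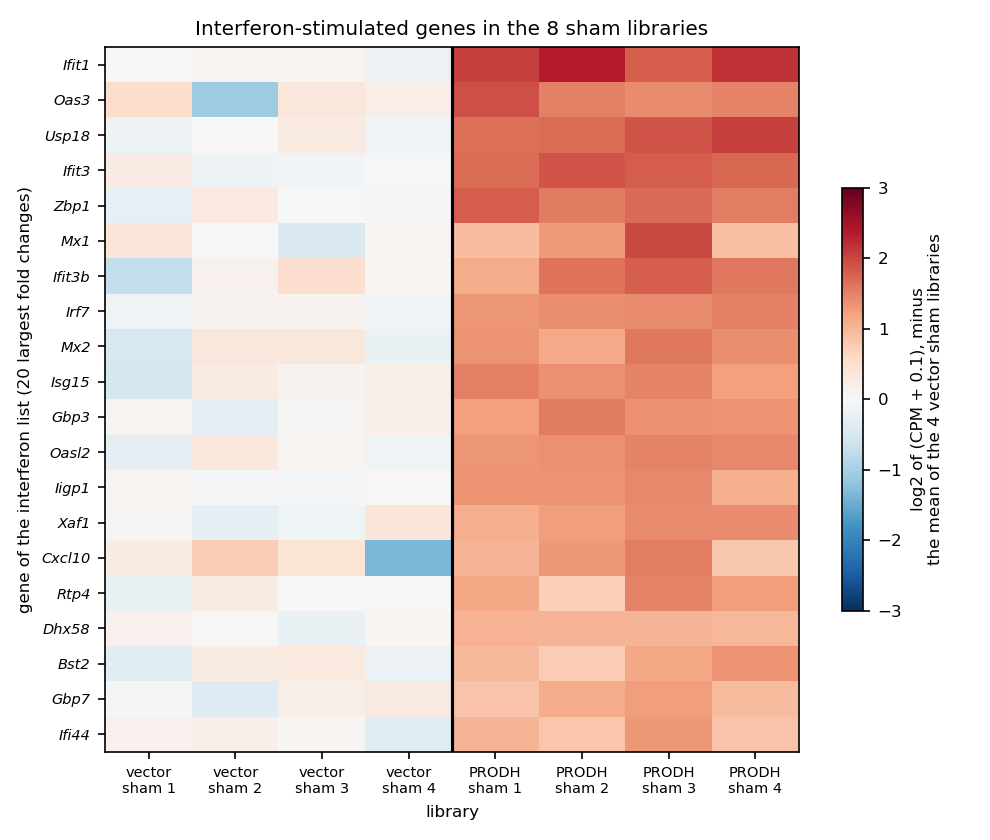
Each row is one of the 20 genes of the interferon list with the largest fold changes, in that order, and each column a sham library. The colour is log2 of CPM plus 0.1, minus the mean of the 4 vector sham libraries, so red is above that mean and blue below. All 20 genes shown are higher in each of the 4 PRODH libraries than in each of the 4 vector libraries, from Ifit1 at the top (log2 fold change 2.13) to Ifi44 at the bottom (1.04).

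The promoters of 3 of these genes show the kind of sequence that interferon-activated factors are known to bind. They are taken from RefSeq on build GRCm38.p6, written 5′ to 3′ on the gene's strand, with capitals marking each place where GAAA stands 2 bases before another GAAA, or the same on the other strand, where it reads as TTTC. The stretch from Ifit1 is chr19:34640769-34640828 on the plus strand, that from Ifit3 is chr19:34583359-34583428 on the plus strand, and that from Isg15 is chr4:156200859-156200908 on the minus strand, where 3 matches overlap.
Ifit1: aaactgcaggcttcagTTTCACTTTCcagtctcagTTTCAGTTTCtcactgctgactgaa
Ifit3: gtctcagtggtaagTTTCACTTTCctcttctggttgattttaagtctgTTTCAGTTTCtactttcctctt
Isg15: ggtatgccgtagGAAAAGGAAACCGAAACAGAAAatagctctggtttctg
Within the 250 bases before the start, 15 of the 26 called interferon genes with a RefSeq promoter held this motif (57.7%), against 338 of 10453 tested genes with a promoter (3.23%). It was in 14.9% of the 288 called higher genes with a promoter and in 2.68% of the 224 called lower ones. The interferon list was made of known interferon-induced genes, many of which carry such a site, so nothing is read from its share. These 26 genes are also among the 288. A match describes the letters in this window and is not evidence of binding.

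Antigen presentation genes, which interferon is known to induce, rose in smaller steps. Of 19 tested members 11 rose and 0 fell, with a median of 0.40. H2-T23, a non-classical class I molecule, rose by 0.94, from 6.26, 10.7, 11.2 and 8.99 CPM to 18.2, 15.5, 18.3 and 20.1. H2-Q4 rose by 0.66, H2-K1, a classical class I heavy chain, by 0.43, and Tap1, a subunit of the peptide transporter, by 0.73. H2-Q4 and H2-T23 had fractional counts in 16 and 15 libraries, as near-identical class I genes share reads. Leaving out vector sham library 1, the lowest in all 3 of H2-T23, H2-K1 and Tap1, brought the called members to 7, and so did a fit on the 8 sham libraries alone. The markers of myeloid cells, which carry much of the class II machinery, moved alongside. Their summed level was 176 to 265 CPM with the vector and 263 to 306 with PRODH, and their part in the antigen presentation result was not tested.

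Clock genes differed in both directions. Of 23 tested members 13 rose and 4 fell. The genes of the output branch rose: Dbp measured 18.5, 20.6, 19.5 and 18.7 CPM with the vector and 44.0, 48.9, 53.01 and 56.8 with PRODH (log2 fold change 1.39 ± 0.08, edgeR adjusted p = 6.4e-13). Dbp had fractional counts in all 16 libraries. Its relatives Tef and Hlf, which bind the same D-box sites, rose by 1.01 and 1.27. Hlf went from 8.04, 5.63, 5.80 and 6.72 CPM to 16.9, 16.01, 15.4 and 14.3. In each of these 3 genes the PRODH libraries lay well clear of the vector libraries.

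Several repressors of the loop rose as well. Per2 measured 3.06, 1.42, 2.41 and 2.59 CPM with the vector and 9.75, 9.22, 9.80 and 7.09 with PRODH, a log2 fold change of 1.95 ± 0.16 (edgeR adjusted p = 7.5e-10). Per3 rose by 1.61, from 3.63, 3.60, 3.92 and 4.497 CPM to 15.1, 11.3, 12.8 and 8.54. Ciart, a repressor of CLOCK and ARNTL, had the largest rise of the list, 2.13 ± 0.24, at 0.476 to 0.996 CPM with the vector and 2.52 to 3.09 with PRODH. Cry1 rose by 0.71 and Nr1d2, which codes for REV-ERB beta, by 0.53. Per1 did not follow: it was at 10.7 to 13.6 CPM with the vector and 11.8 to 15.1 with PRODH (0.06 ± 0.11, edgeR adjusted p = 0.88).

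Among the activators Arntl and Clock fell, and Npas2, at -0.92 ± 0.36, did not pass the test. Arntl measured 6.12, 4.97, 4.65 and 5.03 CPM with the vector and 1.52, 1.25, 1.83 and 0.788 with PRODH, a log2 fold change of -1.92 ± 0.18 (edgeR adjusted p = 5.6e-09). Every PRODH library held less than 2 CPM and every vector library more than 4. Clock fell by 0.59. Nr1d1, which codes for the repressor REV-ERB alpha, fell by 0.32 (edgeR adjusted p = 0.025). Nr1d1 missed the threshold with library totals alone, and also missed the threshold when vector sham library 2, 3 or 4 or PRODH sham library 1 or 3 was left out. The count of falling members went from 4 to 2 without vector sham library 2 or PRODH sham library 1 or 3, and with library totals alone. Since the labels give no hour of collection, an effect of the virus and of the hour cannot be told apart in these genes. The same holds for any gene of the other groups that varies with the hour.

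**Figure D3:**
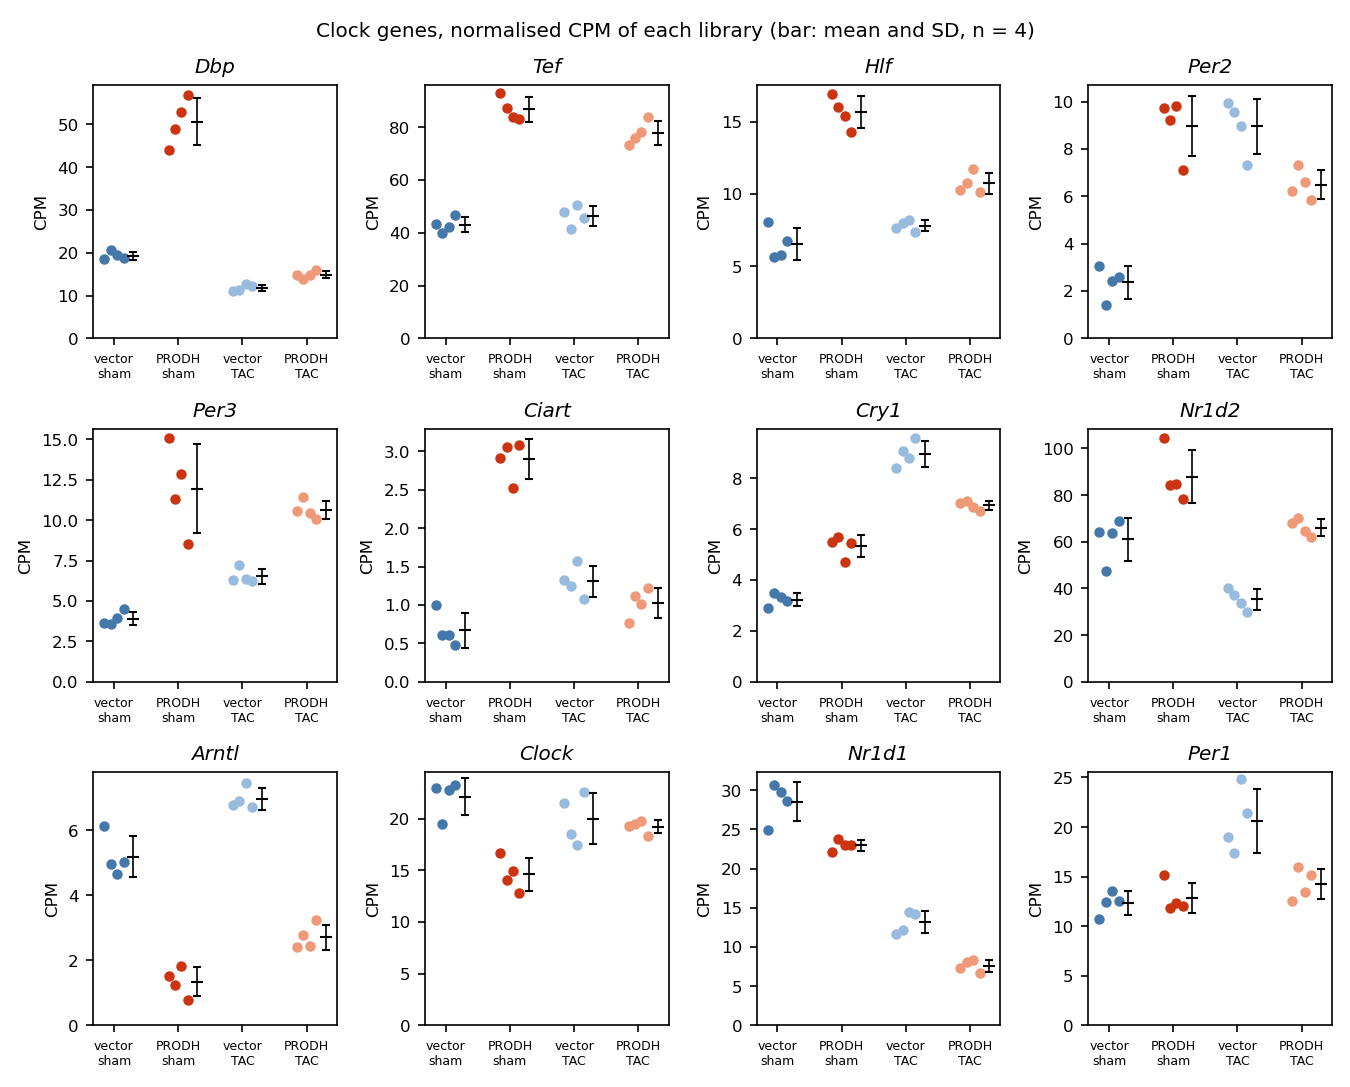
Each panel shows a clock gene in normalised CPM, with a dot per library for vector sham, PRODH sham, vector TAC and PRODH TAC, and a bar for the mean and SD of the 4. Dbp, Per2, Per3 and Ciart are higher in every PRODH sham library than in any vector sham library, and Arntl is lower, with group means of 5.19 and 1.35 CPM. After TAC the PRODH libraries lie below the vector libraries in Arntl, and in Per2 the group means are 8.95 CPM with the vector and 6.50 with PRODH.

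The promoters of 4 rising clock genes are printed because they hold the sites through which the loop is known to work. Capitals mark the E-box CACGTG, the CLOCK and ARNTL site, in Ciart (chr3:95882259-95882358, minus strand), Cry1 (chr10:85185085-85185144, minus strand) and Tef (chr15:81802523-81802582, plus strand). In Per3 (chr4:151044806-151044885, minus strand) they mark the D-box TTATGTAA, the site of DBP, TEF and HLF. All are RefSeq sequence of GRCm38.p6 on the gene's strand.
Ciart: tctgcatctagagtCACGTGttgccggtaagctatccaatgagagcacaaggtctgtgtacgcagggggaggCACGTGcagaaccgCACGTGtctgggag
Cry1: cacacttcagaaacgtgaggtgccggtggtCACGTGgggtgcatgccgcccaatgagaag
Tef: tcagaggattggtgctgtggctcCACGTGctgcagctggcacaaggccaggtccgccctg
Per3: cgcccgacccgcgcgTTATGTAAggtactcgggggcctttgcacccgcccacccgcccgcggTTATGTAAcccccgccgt
The E-box was in 4 of the 10 called higher clock genes with a promoter (Bhlhe41, Ciart, Cry1 and Tef) and in 0 of the 4 called lower, against 9.78% of the tested genes with a promoter. Over all genes with a promoter it was in 8.33% of those called higher and 13.4% of those called lower. The D-box, searched as TTATGTAA or TTACGTAA on both strands, was in 1 of the 10 and in 0.813% of the tested genes. Clock genes are known for these sites, so nothing is read from the shares in the clock list.

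Immediate early genes, which answer signals within minutes and which cell isolation is known to induce, were mostly lower. Of 25 tested members 9 fell and 1 rose, with a median of -0.36. Nr4a1, an orphan nuclear receptor, measured 30.2, 34.0, 33.1 and 34.2 CPM with the vector and 16.8, 15.6, 15.4 and 13.7 with PRODH, a log2 fold change of -1.10 ± 0.08 (edgeR adjusted p = 2.3e-11). Atf3, a stress-induced repressor, fell by 0.86 and Fosl2, a member of the AP-1 family, by 0.87. Btg2, an antiproliferative gene, fell by 0.47. Ier3 went the other way, from 14.3, 14.6, 11.8 and 11.1 CPM to 20.3, 21.7, 20 and 24.5. The summed level of the list was 598 to 656 CPM with the vector and 504 to 535 with PRODH, with no overlap. The sources used here do not say how long each isolation took, and its part was not tested.

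Genes known as glucocorticoid targets gave 8 falls and 0 rises among 20 tested, with a median of -0.24. The lists share members: Cdkn1a, Ddit4, Angptl4 and Dusp1 are also counted in other lists, and Nppa in both the hypertrophy and the atrial list. Cdkn1a, the cell cycle inhibitor p21, measured 28.2, 34.0, 32.2 and 31.5 CPM with the vector and 10.4, 12.2, 12.8 and 14.5 with PRODH, a log2 fold change of -1.34 ± 0.09 (edgeR adjusted p = 1.2e-11). Ddit4, an inhibitor of mTORC1, fell by 0.83 and the metallothionein Mt2 by 0.67. Dusp1, a phosphatase of MAP kinases, fell by 0.43, Errfi1 by 0.38 and the kinase Sgk1 by 0.25. Sgk1 missed the threshold in 13 of 24 alternative settings, the fit on the 8 sham libraries among them, and Errfi1 without vector sham library 2 or 3 or PRODH sham library 2 or 3. Among the 12 members not called were Fkbp5 at 0.14 ± 0.10 and Tsc22d3 at 0.12 ± 0.08. The falling members were 5 in place of 8 without vector sham library 2 or 3 or PRODH sham library 2 or 3. Among inflammatory mediators 5 of 25 fell and 0 rose, of which the cytokine Il1b fell by 1.27, from 1.64 to 2.38 CPM down to 0.525 to 0.934.

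The hypertrophy and wall stress list gave 8 falls and 1 rise among 23 tested, with a median of -0.19. Rcan1, a target and regulator of calcineurin, was the tightest of them at 56.8, 56.4, 57.05 and 57.2 CPM with the vector and 37.6, 39.5, 38.2 and 38.9 with PRODH. Its log2 fold change was -0.56 ± 0.06 (edgeR adjusted p = 2.6e-07). Nppb, B-type natriuretic peptide, went from 166, 166, 155 and 147 CPM to 121, 103, 109 and 129 (-0.45 ± 0.07). Nppa, its atrial relative, fell by 0.40, and its ranges of 137 to 164 and 108 to 139 CPM touched. Ccn2 and Ccn1, matricellular proteins induced by stretch, fell by 0.52 and 0.35. Myh7, the slow myosin heavy chain, was the member that rose, by 0.41 ± 0.11 (edgeR adjusted p = 0.020). It had fractional counts in every library and missed the threshold without vector sham library 1 or 2 or PRODH sham library 1 or 3. Acta1, skeletal actin, stood at -0.05 ± 0.09, Myh6 at 0.01 ± 0.08 and Atp2a2, the calcium pump of the sarcoplasmic reticulum, at -0.12 ± 0.07, none of them past the test.

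Of 26 genes of the adult sarcomere and calcium handling 2 rose and 0 fell, where 2.81% of all genes tested rose and 2.20% fell. Myom2, an M-band protein, rose by 0.38. Tcap, a titin cap, rose by 0.27 and missed the threshold without vector sham library 1, 3 or 4 or PRODH sham library 3 or 4. Among 23 ion channel and junction genes 2 rose and 4 fell. Gja1, connexin 43, fell by 0.43, from 267, 224, 234 and 240 CPM to 194, 185, 176 and 163, and Kcnj2, an inward rectifier channel, rose by 0.49. The falling members of that list were 2 in 9 of the alternative settings, which include leaving out any of vector sham libraries 2, 3 and 4 and PRODH sham libraries 1, 2 and 3.

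Chaperones differed in both directions. Of 25 heat shock genes 3 rose and 4 fell. Hsph1, a nucleotide exchange factor for HSP70, fell from 72.7, 65.1, 64.3 and 64.0 CPM to 37.4, 44.3, 44.3 and 37.8 (-0.70 ± 0.07, edgeR adjusted p = 8.6e-08). The near-identical Hspa1a and Hspa1b, which share reads, rose by 0.36 and 0.44. Of 21 genes of the unfolded protein response 1 rose and 4 fell. Hspa5, the main chaperone of the endoplasmic reticulum, went from 349, 321, 315 and 323 CPM to 250, 252, 253 and 249, a fall of 0.38 on the log2 scale. Manf fell by 0.54 and Herpud1, a component of the degradation machinery of that organelle, rose by 0.40. The falling members of this list were 2 without vector sham library 1 or 3 or PRODH sham library 3, and with library totals alone.

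The atrial gene Bmp10 showed the largest fall of all. Bmp10 is a secreted growth factor of atrial muscle. It measured 5.55, 5.07, 5.25 and 4.39 CPM in the vector sham libraries and 0.175, 0.249, 0.287 and 0.394 in the PRODH sham libraries, from 348 and 18 counts in all. The log2 fold change was -4.18 ± 0.29 (edgeR adjusted p = 1.6e-11). The vector sham group stood alone: the vector TAC libraries were at 0.208 to 0.488 CPM and the PRODH TAC libraries at 0.0402 to 0.276. Of 16 atrial and conduction genes 5 fell and 0 rose. Myl4, the atrial light chain, fell by 0.40, but Myl7 was at -0.26 ± 0.11 and Sln, sarcolipin, at -0.23 ± 0.14, neither past the test. Myl7 ranged from 16.5 to 20.96 CPM with the vector and 12.8 to 18.7 with PRODH. The summed level of the list was 577 to 650 CPM with the vector and 501 to 534 with PRODH. That sum includes Bmp10 itself and Nppa, which also counts in the hypertrophy list. The part of atrial tissue in the Bmp10 result was not tested. The falling members were 3 without PRODH sham library 3 and with library totals alone.

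Further single genes stood among the 15 largest falls. Tfrc, the transferrin receptor that brings iron into cells, measured 101, 79.9, 90.8 and 99.3 CPM with the vector and 50.1, 39.4, 37.7 and 37.2 with PRODH (-1.17 ± 0.10, edgeR adjusted p = 1.6e-08). Slc41a3, a magnesium transporter, fell by 1.21, from 26.8, 29.1, 30.8 and 29.1 CPM to 12.4, 13.2, 11.6 and 12.7. Sik1, a salt-inducible kinase, fell by 1.05, Dct by 1.00, Ckap4, a membrane protein of the endoplasmic reticulum, by 0.96 and Olfml2b by 0.91. In each of these 6 genes the 2 groups did not overlap, which the rule for the 15 largest falls required.

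**Figure D4:**
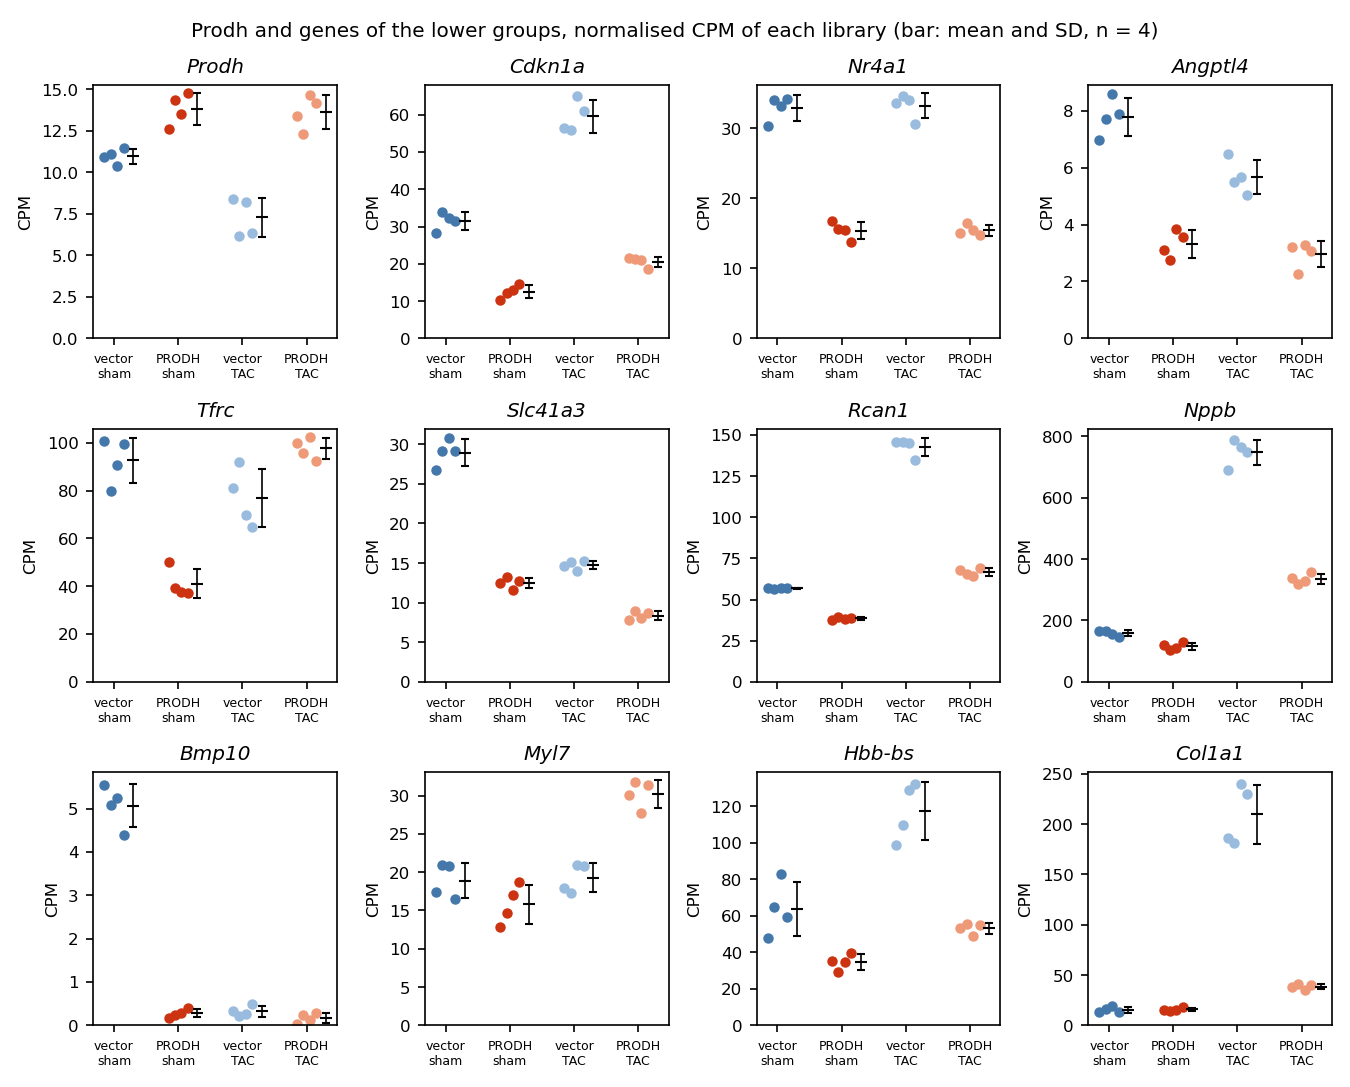
Each panel shows a gene in normalised CPM, with a dot per library in the 4 groups and a bar for the mean and SD of the 4. Cdkn1a, Nr4a1, Angptl4 and Slc41a3 are lower with PRODH after both surgeries, Tfrc has group means of 92.6 CPM with the vector and 41.1 with PRODH after sham, and of 76.9 and 97.6 after TAC, and Bmp10 is high in vector sham alone. Prodh, Myl7 and Col1a1 did not pass the test after sham.

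Markers of cells other than cardiomyocytes differed in both directions. In bulk RNA, fewer cells of a type and less RNA per cell cannot be told apart. Of 22 myeloid markers 7 rose and 3 fell. The macrophage genes Cd163 and Ctss rose by 0.79 and 0.72, with Cd163 at 4.20, 5.48, 7.43 and 6.14 CPM against 8.41, 9.41, 12.6 and 10.1. S100a8 and S100a9, which neutrophils express most, fell by 2.76 and 2.66 from low levels, S100a9 from 1.35 to 2.41 CPM down to 0.0657 to 0.516. The rising myeloid markers were 3 or 4 without vector sham library 4 or PRODH sham library 1, 3 or 4, and the fit on the 8 sham libraries called 1 falling marker in place of 3. Of 6 tested red cell and platelet markers 5 fell, with a median of -0.94 over the 6 and the summed level at 112 to 189 CPM with the vector and 69.0 to 95.6 with PRODH. The beta globins Hbb-bs and Hbb-bt, which share reads with each other, fell by 0.88 and 0.94, and the alpha globin Hba-a2 fell by 0.93. Hbb-bt missed the threshold without vector sham library 2 (-0.86, edgeR adjusted p = 0.0503). Alas2, the first enzyme of heme synthesis in red cells, fell by 1.33 and missed the threshold without vector sham library 3.

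Vessel and connective tissue genes added single members, beside 2.81% higher and 2.20% lower of all genes tested. Of 22 endothelial markers 3 rose and 1 fell: the water channel Aqp1 rose by 0.50, while the tight junction gene Cldn5 fell by 1.02, from 8.82, 13.2, 13.8 and 10.8 CPM to 6.25, 5.67, 5.04 and 6.11. Of 15 mural cell markers 3 fell and 0 rose, among them the smooth muscle genes Tagln (-0.73) and Myh11 (-0.67). Of 17 fibroblast markers 1 rose and 0 fell, and their summed level was 379 to 569 CPM with the vector and 542 to 585 with PRODH. Of 38 matrix genes 4 fell and 0 rose, which were 7 without vector sham library 1. Thbs1, thrombospondin 1, fell by 1.03, and the basement membrane chains Col4a1 and Col4a2 each by 0.51. Col1a1 at 0.04 ± 0.13 and Postn at -0.06 ± 0.13 did not pass the test.

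The virus effect was also measured between the 2 groups of TAC libraries. Both effects come from a fit to all 16 libraries that shares its estimate of the spread, so the TAC libraries bear on which genes are called after sham: the fit on the 8 sham libraries alone called 319 higher and 268 lower. After TAC the same test called 6059 genes, 18.5% of the genes tested as higher and 24.6% as lower. Of the 704 genes called after sham, 307 were called the same way after TAC, which is 43.6% of the sham calls and 5.07% of the TAC calls. Another 170 were called the opposite way and 227 were not called after TAC. The difference between the 2 virus effects was tested itself as an interaction, which called 3764 genes (26.8%). It was called for 410 of the 704, and for all 170 of those that went opposite ways.

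The groups differed in how they read in the TAC libraries. Of the interferon list 39 of 40 members were higher with PRODH after TAC. Ifit1 held 5.53 ± 0.997 CPM with the vector and 55.8 ± 1.80 with PRODH (SD, n = 4), and its effect was larger than after sham by 1.19 on the log2 scale (edgeR adjusted p of the interaction 8.0e-06). Igtp was the exception, at 0.90 after sham and -0.23 after TAC. It measured 14.9 to 17.8 CPM with the vector and 29.0 to 32.1 with PRODH after sham. Of the antigen presentation list 3 members were higher and 6 lower after TAC.

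In the clock list 8 of the 17 called members were called the same way after TAC and 3 the opposite way. Arntl stayed lower with PRODH (-1.36), Dbp, Tef and Hlf stayed higher (0.33, 0.75 and 0.46), and Per2 and Cry1 turned lower (-0.47 and -0.37). Ciart was at -0.34 after TAC and did not pass the test. The interaction was called for Per2 at -2.41 and Ciart at -2.47 (edgeR adjusted p = 7.2e-10 and 1.4e-06). Of the immediate early list 7 of 10 called members were called the same way and 1 the opposite way. All 8 glucocorticoid targets that fell after sham also fell after TAC. Of the hypertrophy list 8 of 9 called members went the same way, and Myh7 the opposite way, at 711 ± 80.7 CPM with the vector and 22.2 ± 1.06 with PRODH after TAC. In the myeloid list 3 of 10 called members went the same way and 6 the opposite way. After TAC, 20 of 25 immediate early and 15 of 20 glucocorticoid genes were called lower with PRODH. So were 22 of 23 hypertrophy and 20 of 22 myeloid genes. Since most members of these lists were lower after TAC, nothing is read from how many sham calls went the same or the opposite way.

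**Figure D5:**
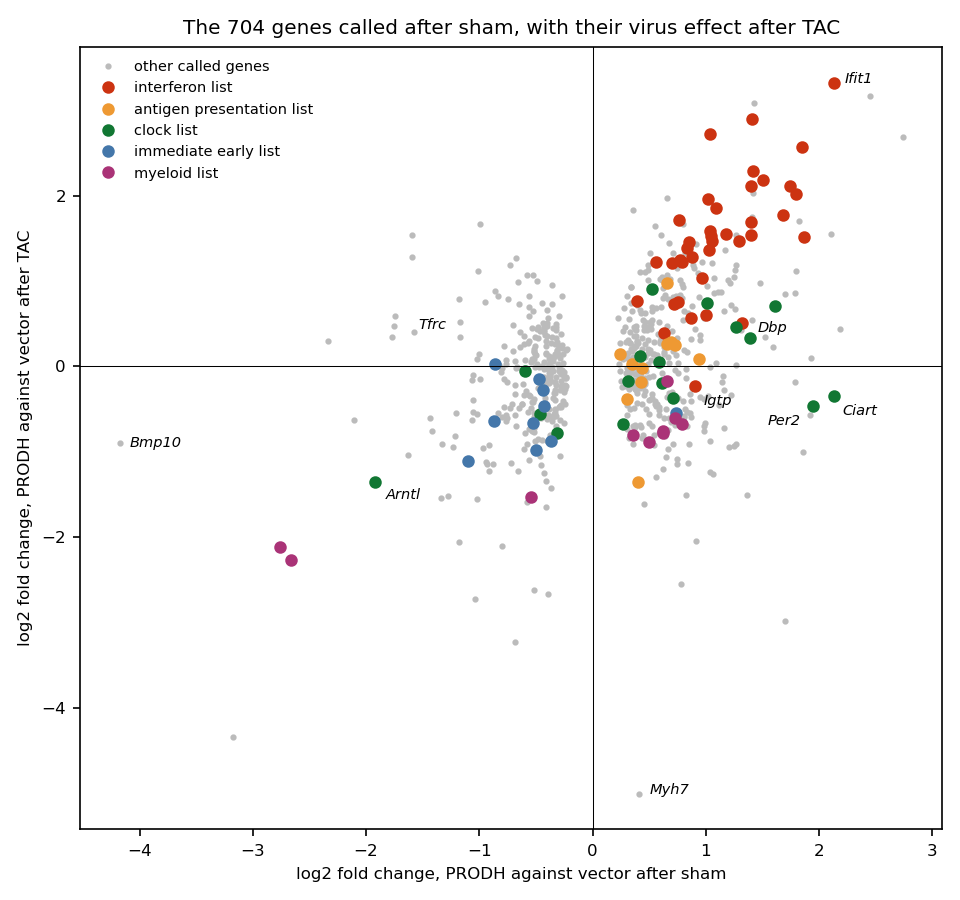
Each dot is one of the 704 genes called after sham, with its log2 fold change of PRODH against vector after sham on the horizontal axis and after TAC on the vertical axis. Each axis compares its own 8 libraries, and the calls come from a fit to all 16 with a shared estimate of the spread. Interferon genes lie in the upper right, with Igtp below 0 on the vertical axis, while clock genes lie on both sides of 0 after TAC and Myh7 lies far down at 0.41 and -5.00.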

How the data were processed

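RNA was measured in isolated adult mouse cardiomyocytes with a SMARTER mRNA-Seq kit, per the labels' protocols. The authors deposited an estimated count for each gene and library. The sources used here name no aligner, counter or genome build, so coordinates are those that RefSeq gives with its promoters. In 16.73% of gene models a count was fractional, so reads were divided between similar sequences, and counts were rounded here. All 16 columns were matched to samples by name, and groups came from the sample titles. No 2 libraries of a group held the same counts (chi-square per gene from 2.87 to 30.7, with a minimum summed count of 20).

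Low genes were removed with filterByExpr at a minimum count of 10 and a minimum total of 15, and libraries scaled by TMM. The quasi-likelihood test of edgeR 4.0.16 (R 4.3.3, limma 3.58.1, data.table version 1.17.8) was fitted to all 16 libraries with 4 groups and no block, with Benjamini-Hochberg adjustment over 14066 genes and a threshold of 0.05. CPM are TMM-scaled, fitted folds use a prior count of 0.125, SE belongs to log2 fold changes and SD to CPM of 4 libraries. The script was tested on simulated counts. Nuclear copies of mitochondrial genes are GENCODE M21 transcripts with at least 90% identity over 50% of the copy. The alternatives were library totals alone, DESeq2 1.42.0 size factors or test, no filter, a minimum count of 30, removal of mitochondrial genes, the 8 sham libraries alone, a replicate block and leaving out each library.

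The members, the 40 gene lists and the tests were chosen with earlier results of these data known. The rule for named genes took Prodh, the 15 largest rises and 15 largest falls among called genes with a standard symbol, at least 5 CPM and groups that do not overlap, up to 4 called members with the smallest p in lists with at least 3, members of lists with fewer, and 12 landmark genes. Isg15, Igtp, Cxcl10, Oas1b, Ciart, Arntl, Clock, Cry1, Nr1d1, Nr1d2, Per1, Ier3, Fkbp5, Tsc22d3, Dusp1, Errfi1, Sgk1 and Npas2 were added after their values were seen, as were the promoters shown and the genes named only as list members. Promoters were searched over the 250 bases before the start.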

Additional observations from a re-analysis of the deposited data

Results flagged for a closer look

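Of 107 genes named and tested, 67 had a virus effect that differed between the 2 surgeries by edgeR's interaction test, with adjusted p-values up to 0.0423. Over all genes tested 26.8% did (3764 of 14066). Most of the 107 genes were chosen for their effect after sham, which enters this difference, so nothing is read from their share. Each value here is the effect of PRODH against vector after TAC minus that after sham, on the log2 scale, so a negative value means a lower effect after TAC. The genes with the widest difference were Myh7 at -5.41, from 0.41 after sham to -5.00 after TAC, and Bmp10 at 3.28, from -4.18 to -0.89. After TAC, Bmp10 held 26 counts over the vector and 17 over the PRODH libraries, which left little room for a fall. Its effect after TAC did not pass the test (edgeR adjusted p = 0.092).

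Around PRODH the differences were 0.56 for Prodh, 0.40 for Aldh4a1, -0.50 for Glul and -1.85 for Slc1a5. Among interferon genes the effect was larger after TAC for Ifit1 (1.19), Irf7 (0.88), Usp18 (0.72), Isg15 (0.71) and Ifi27 (0.55). It was lower after TAC for Igtp (-1.13), Iigp1 (-0.81) and Ifi27l2a (-0.51), and for the antigen presentation genes H2-T23 (-0.86), Tap1 (-0.48), H2-K1 (-0.45) and H2-Q4 (-0.39). Clock genes gave -2.47 for Ciart, -2.41 for Per2, -1.08 for Cry1, -1.05 for Dbp, -0.91 for Per3, -0.81 for Hlf, -0.59 for Per1, -0.47 for Nr1d1 and 0.54 for Clock.

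Immediate early and glucocorticoid genes gave 0.89 for Atf3, 0.33 for Btg2, -1.29 for Ier3, 0.29 for Ddit4, -1.87 for Fkbp5, -0.42 for Sgk1 and -0.78 for Tsc22d3. Hypertrophy and muscle genes gave -2.27 for Nppa, -2.10 for Ccn2, -0.81 for Acta1, -0.70 for Nppb, -0.54 for Rcan1, -1.06 for Myom2, 0.48 for Myh6 and 0.77 for Atp2a2. Among channels and atrial genes the values were 0.83 for Gja1, 0.70 for Kcnj2, 0.88 for Myl4, 0.92 for Myl7 and 0.85 for Sln. Chaperones gave 0.88 for Hsph1, 0.42 for Hspa5, -1.28 for Hspa1b and -1.05 for Hspa1a. Metabolic genes gave 0.74 for Pdk4, 0.43 for Nampt, -0.48 for Gclm and -1.42 for Hmox1.

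Matrix and cell type genes gave -2.48 for Col1a1, -2.28 for Postn, -1.69 for Thbs1, 0.46 for Cldn5, -1.05 for Aqp1, 0.66 for Myh11, -1.46 for Cd163 and -1.33 for Ctss. The remaining single genes were Tfrc (1.51), Dct (1.15), Sik1 (0.66) and Slc41a3 (0.40).

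In 9 cases a sham library lay far from the other 3 of its group by Dixon's criterion, which chance alone meets in about 1 of 20 groups, and 2 groups were examined for each gene. In PRODH sham, library 4 was high for Nppa (139 CPM against 108 to 112) and Aqp1 (155 against 132 to 135) and low for Glul (271 against 282 to 284), and library 1 was high for Per1 (15.1 against 11.8 to 12.4). In vector sham, library 1 was high for Hsph1 (72.7 against 64.0 to 65.1), library 2 was high for Tcap (930.4 against 835 to 841) and low for Clock (19.5 against 22.8 to 23.3), and library 3 was low for Btg2 (54.6 against 58.7 to 59.5) and high for Alas2 (2.05 against 0.996 to 1.12).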

How the results depend on the processing

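The counts of genes called in the sham comparison, in the interaction and in both surgeries stayed within 1.5 times their values in every alternative. Leaving out 1 library at a time gave 288 to 445 higher and 222 to 351 lower genes, 3207 to 4110 genes with an interaction and 246 to 335 sham calls called the same way after TAC. DESeq2 called 417 higher and 317 lower, and 667 of the 704 calls were called the same way by it. With library totals alone there were 374 higher and 219 lower, and the share of higher among the calls went from 56.1% to 63.1%. Prodh kept a log2 fold change of 0.29 to 0.37 when 1 library was left out, with adjusted p from 0.0338 to 0.136. It passed the threshold with a minimum count of 30 (0.332, adjusted p = 0.0451), without mitochondrial genes (0.336, 0.0465) and in the fit on the 8 sham libraries (0.327, 0.0438). It also passed without PRODH sham library 1 or without any 1 of the vector TAC libraries, which are not part of the sham comparison. Leaving out any other sham library gave an edgeR adjusted p from 0.0814 to 0.136. Of the values of single genes under the alternatives, 2488 kept their side of the threshold, 39 no longer passed, 11 newly passed and 0 that passed changed sign. Of genes that did not pass, Acta1, Per1, Myh6, Col1a1 and Pycr1 took either sign when 1 library was left out. A replicate block called 413 higher and 310 lower genes, and 3872 interactions, with 311 sham calls called the same way after TAC and Prodh at 0.33 (adjusted p = 0.0613). Whether same-numbered sham libraries are paired was not settled. Their correlations were 0.161, -0.0388, 0.047 and -0.0313, and 2 of 4 PRODH sham libraries correlated best with their own number. Depth limits low genes such as S100a8, Oas1b, Cxcl10 and Pycr1, which lie near or under 1 CPM.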
